A study of Mus musculus with 4 samples.

Results

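Conventional type 2 dendritic cells (cDC2) are tissue phagocytes that take up antigen and present it on MHC class II, chiefly to CD4 T cells. The cells described here came from a single-cell RNA series of CD45-selected cells from B16-F10 melanoma grown in mice. Members were chosen by their raw UMI (unique molecular identifier) counts, with no clustering. A barcode was a member with at least 2 UMIs of Cd209a, at most 5 of C1qa, C1qb and C1qc together, under 3 of Ly6c2 and Chil3, and under 2 of Xcr1 and Clec9a. It also had at most 1 UMI of Cd3d, Cd3e and Cd3g, under 10 of Mlana and Dct, and not both Ccr7 (1 or more) and Fscn1 (2 or more). Barcodes needed at least 500 genes and at most 10% mitochondrial UMIs. This gave 134 cells of 8677 kept, from 8838 barcodes. There were 33 and 28 cells in the libraries S1 and S2 of Adar1-null tumours, and 36 and 37 in the libraries S3 and S4 of control tumours.

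All 4 libraries came from C57BL/6 mice that carried B16-F10 tumours, a melanoma line of the same strain, implanted in matrigel and taken on day 14. In one group the tumour cells were Adar1 null, and in the other they were control cells. Adar1, encoded by Adar, edits adenosine in double-stranded RNA. The dendritic cells belong to the host, for which the labels give no change in Adar1, so the groups differ in the tumour in which the cells were found. Collagenase P and DNase I were used for 10 min at 37 °C, dead cells and debris were reduced on an Optiprep gradient, CD45-positive cells were taken with magnetic beads, and 10x 3′ v2 libraries were made, which tag each captured RNA molecule near its 3′ end so that levels do not scale with transcript length. The labels do not give the age or sex of the mice, or say if the tumour cells were 1 clone or a pool. Nor do they tie each library to its own animal, and p-values therefore cover no more than the spread among libraries, which may be technical. The 3′ counts of Adar in melanoma-gated cells (9.91, 13.4, 10.7 and 13.1 CPM from S1 to S4, where CPM means counts-per-million of the UMIs summed over a class) do not check the label, since the changed part of the gene is not stated.

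Dendritic cells arise from bone marrow precursors under the growth factor FLT3 ligand, whose receptor is encoded by Flt3. The cDC1 branch depends on IRF8 and BATF3, takes up dead cells through CLEC9A and presents antigen to CD8 T cells. The cDC2 branch is marked by SIRPA and by C-type lectins, among them those encoded by Cd209a, Clec10a and Mgl2, and uses IRF4, KLF4 and NOTCH2 to varying degrees. After activation either branch can turn into a CCR7-positive cell that migrates to the draining lymph node. In inflamed tissue, monocytes can also express Cd209a and MHC class II, so the border between cDC2 and monocyte-derived cells is set by several genes together. Type I interferon binds a receptor on nearly all cells and induces antiviral genes. IRF7 is itself induced in this way and drives further interferon production.

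The gate left out many Cd209a-positive cells. Of 226 kept cells with at least 2 Cd209a UMIs, 134 met every criterion. Among the others, 42 had 3 or more UMIs of Ly6c2 and Chil3, 37 had 2 or more of the Cd3 genes, 29 had over 5 of the C1q genes, 4 had Xcr1 and Clec9a, 2 had pigment genes, and 2 had Ccr7 with Fscn1 (a cell can fail several criteria). Members held from 2 to 52 Cd209a UMIs, with a median of 8. At the threshold, the 20 members with exactly 2 Cd209a UMIs had H2-DMb2 at 227 CPM, Clec10a at 166 CPM and Lyz2 at 3099.9 CPM. The 30 cells with 1 Cd209a UMI that met the other criteria had 412, 187 and 4250.4 CPM. The 53 members with 10 or more had 404, 594 and 1309 CPM. The 12 cells kept out by 3 to 5 UMIs of Ly6c2 and Chil3 were set against the 28 members with 1 or 2. They had less H2-DMb2 (15.1 against 301 CPM) and more Lyz2 (5908 against 2446 CPM). Ccl17 and Ffar2 were at 0 against 51.2 CPM each. Clec10a was not lower, at 317 against 256 CPM, and Napsa was close, at 618 against 683 CPM. The genes of the type thus did not all change at this border. One or more Cd209a UMIs were seen in 3.10% of T cells (median 8636 UMIs per cell) and 2.35% of melanoma cells, which should lack the gene. At the cut of the gate, 2 or more UMIs were held by 2.21% of T cells and 0.224% of melanoma cells.

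Members held 209606 UMIs in all in S1, 174052 in S2, 260827 in S3 and 233504 in S4. Their median was 6403, 5442.5, 6604 and 6093 UMIs per cell, and the lowest member had 4042. No barcode of the matrix was below 3961, so shallower cells were not analysed here. No member exceeded a Scrublet doublet score of 0.1, against 108 of all kept cells. In all, 38 barcode sequences occurred in 2 or more libraries. Just 1 member had such a barcode, and no barcode was shared between members. Library S4 stood apart in Apoe, an abundant macrophage transcript. From S1 to S4 its level was 3205, 1283, 4178 and 20357 CPM in macrophages, 109.7, 40.2, 72.8 and 484 CPM in members and 114, 28.9, 63.4 and 511 CPM in T cells, which should lack it. An Apoe UMI was held by 97.3% of members in S4 and by 30.3, 21.4 and 41.7% in the other libraries. Members and T cells thus held Apoe at like levels within each library.

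The 5 markers of the type that the gate did not use were all present, at different levels. Napsa, which encodes an aspartic protease of the endosomal pathway, was at 898 ± 159.7 CPM (SD, n = 4 libraries) in members and 356 ± 46 CPM in monocytes. H2-DMb2, a chain of the peptide exchanger H2-DM, was at 267, 379, 349 and 505 CPM from S1 to S4, against 25.4 ± 5.49 CPM in monocytes and 11.6 ± 3.49 CPM in macrophages. These levels put members above both of those classes in every library. Ffar2, a receptor for short-chain fatty acids, was at 62, 121, 127 and 158 CPM, and its mean was 9.05 ± 9.81 CPM in cDC1 cells and 16.1 ± 5.55 CPM in monocytes. Ccl17, a chemokine that attracts CCR4-positive T cells, varied between libraries, at 472, 115, 245 and 433 CPM, and migratory dendritic cells held more (829 ± 724 CPM). Flt3 was at 44.3 ± 17 CPM, below cDC1 cells (134 ± 14.8 CPM) and migratory cells (145 ± 17.9 CPM) and above monocytes (10.5 ± 6.09 CPM). Zbtb46, a transcription factor of the conventional dendritic lineage, was at 14.3, 17.2, 23 and 21.4 CPM in members and 0.939 ± 0.650 CPM in monocytes. Its mean was higher in cDC1 cells (36 ± 9.18 CPM) and migratory cells (28.2 ± 23.8 CPM). The cDC1 cells also held Napsa at 717 ± 161 CPM and H2-DMb2 at 198 ± 49.5 CPM.

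**Figure D1:**
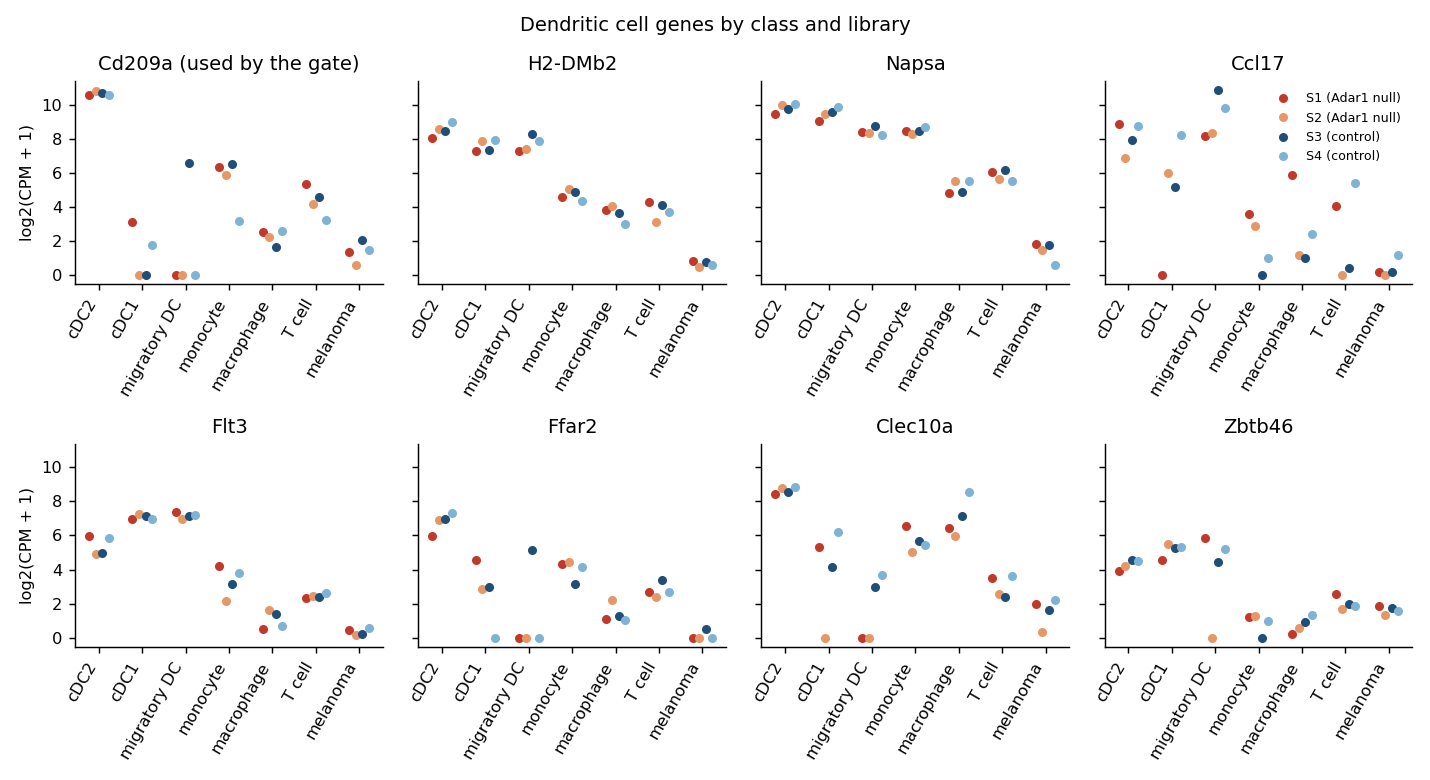
Level of 8 dendritic cell genes in 7 gated classes, on the y axis as log2(CPM + 1) of the UMIs summed per library and class, with 1 point per library. H2-DMb2 was high in cDC2, cDC1 and migratory cells, Napsa was higher in cDC2 and cDC1 cells than in migratory cells and monocytes, Ffar2 and Clec10a had their highest mean in cDC2 cells (macrophages of S4 also held Clec10a), and Flt3 was lower in cDC2 than in cDC1 and migratory cells. Cd209a is plotted as a description, since it chose the members.

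Other defining genes of the type were mixed. Sirpa was at 121 ± 25.6 CPM and Itgax (CD11c) at 59.7 ± 14.2 CPM. Irf4 gave 18 UMIs over all members (38.2, 17.2, 11.5 and 17.1 CPM), and cDC1 cells gave 0. Monocytes held it at 3.30 ± 1.64 CPM, T cells at 16.6 ± 7.28 CPM and migratory cells at 33.2 ± 6.01 CPM. Its level in members was thus near that of T cells. Esam and Clec4a4, markers of a NOTCH2-dependent splenic form, had 0 UMIs in the 877989 UMIs of members, which allows a level of up to 3.42 CPM. Genes shared with monocytes were also present: Lyz2 (lysozyme) at 1929.5 ± 876 CPM, Ccr2 at 333 ± 59.6 CPM, Csf1r at 77.8 ± 9.93 CPM and Fcgr1 (CD64) at 131 ± 65.6 CPM. Monocytes held more of each, at 12177 ± 274 CPM, 522 ± 96.1 CPM, 193 ± 17.2 CPM and 709 ± 106 CPM. Markers of unrelated cells were low or absent. The summed level of 10 B cell markers ran from 4.28 to 11.5 CPM per library, and Cd79a and Ms4a1 were at 0. For 14 neutrophil markers it ran from 11.5 to 38.5 CPM, with Ly6g, Camp and Retnlg at 0. For 15 T and NK cell markers it was 105 and 91.9 CPM against 72.8 and 445 CPM, with Lck, Foxp3 and Ncr1 at 0. The high sum of S4 was mostly Ccl5 (81.1 and 63.2 CPM against 38.3 and 428 CPM), of which 1 member of S4 held 33.3% of the UMIs.

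Among members, the markers were not spread evenly. To compare shares, each cell was thinned to 4000 UMIs. Napsa was then detected in 91% of members (98.5% before thinning), H2-DMb2 in 58.2% (67.9%), Clec10a in 57.5% (65.7%) and Klrd1, a killer lectin-like receptor chain, in 52.2% (59.7%). In T cells (median 8654 UMIs before thinning, more than in members), thinned alike, H2-DMb2 was detected in 3.32%, Clec10a in 2.29% and Napsa in 15.4%, while Klrd1, which T and NK cells express, was in 69.8%. Flt3 was detected in 17.2% of members (20.9% unthinned), Ffar2 in 28.4% (32.8%), Mgl2 in 30.6% (34.3%) and Cd7 in 29.9% (34.3%). T cells had Flt3 in 1.26%, Ffar2 in 1.40% and Mgl2 in 1.11%. Ccl17 was held by 17.9% of members (17.9% unthinned, T cells 0.960%), and the 5 richest cells gave 62.3% of its UMIs, 1 of them, in S4, 18%. Its level per library therefore rests on few cells. Il1b was detected in 70.9% of members (76.9% unthinned) and 11.4% of thinned T cells, with up to 92 UMIs in a member. Il12b, a subunit of IL-12, had no UMI in 134 cells, which allows a share of cells with a UMI of up to 2.24%. As a description over the 134 thinned cells, which share libraries, Cd7 was detected in 19.2% of members with H2-DMb2 and 44.6% of those without (Pearson r across cells on log counts -0.33). Isg15 was detected in 74.4% of members with Fcgr1 and 46.3% of those without (r 0.46). Both pairs were among those with the largest r of the pairs compared. From S1 to S4, thinned detection was 63.6, 71.4, 50 and 37.8% for Isg15 and 36.4, 35.7, 27.8 and 18.9% for Fcgr1. The part of such library differences in r was not tested.

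Few members carried several cell cycle transcripts. After thinning, 3 or more UMIs over 20 core cell cycle genes were held by 6 of 33 members in S1, 1 of 28 in S2, 2 of 36 in S3 and 1 of 37 in S4. Before thinning these were 8, 1, 6 and 2 members. S1 had the largest share by both counts.

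The share of cDC2 cells overlapped between the groups. They made up 1.67% (1.15 to 2.34%) and 1.43% (0.953 to 2.06%) of kept cells in the Adar1-null libraries, against 1.83% (1.29 to 2.53%) and 1.33% (0.937 to 1.83%) in the controls (exact binomial 95% intervals for counting error). The group means were 1.55 ± 0.172% and 1.58 ± 0.358% (SD, n = 2), with p = 1 by an exact two-sided permutation test. Of all dendritic cells (cDC2, cDC1 and migratory cells by gate), cDC2 cells were 38.8% (28.4 to 50%), 45.9% (33.1 to 59.2%), 42.9% (32.1 to 54.1%) and 43.5% (32.8 to 54.7%) in S1 to S4 (exact permutation p = 1). The other dendritic cells lay further apart. The cDC1 cells were 16.5 and 23% of dendritic cells in Adar1-null and 33.3 and 41.2% in control libraries. Migratory cells were 44.7 and 31.1% against 23.8 and 15.3%. Of cDC2 and cDC1 cells together, cDC2 cells were 70.2 and 66.7% against 56.2 and 51.4%. In these 3 shares the groups did not overlap, at exact permutation p = 0.333 each, the smallest that 2 against 2 libraries allow (adjusted over the 5 shares 0.556).

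**Figure D2:**
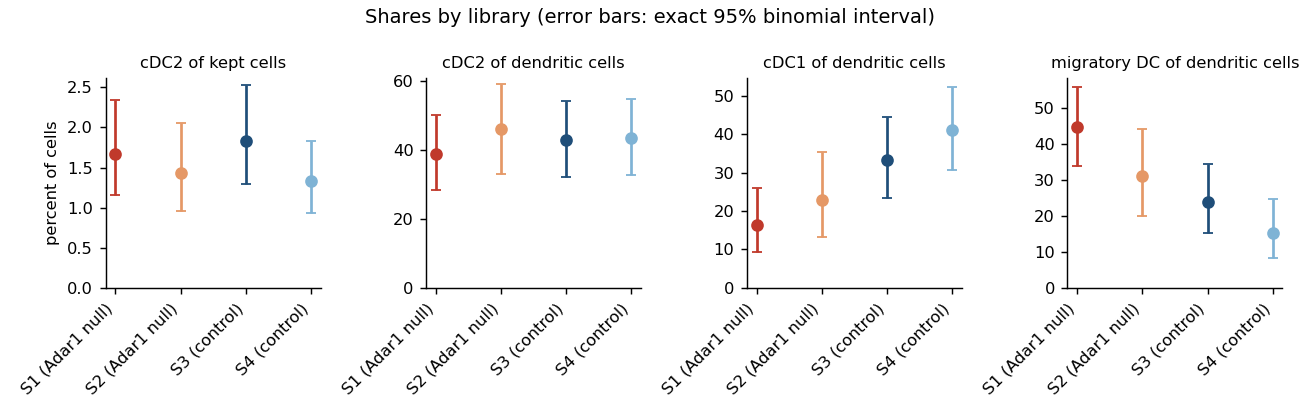
Share of cells by library on the y axis, in percent, for cDC2 of kept cells and for cDC2, cDC1 and migratory cells among dendritic cells, with exact 95% binomial intervals. The cDC2 shares overlap between the groups, while the cDC1 and migratory shares do not.

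The next comparisons ask how the gated cDC2 cells differed from the other dendritic cells and from monocytes of the same libraries. UMIs were summed per library and class and fitted in edgeR with the library as a block. The 15 gate genes are left out of counts and names, but genes that accompany them in single cells follow the choice of cells, so these counts describe the gated classes. Means are over n = 4 libraries with their SD.

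Against cDC1 cells (91 cells), cDC2 cells had more RNA of myeloid lectins, inflammatory cytokines and interferon-stimulated genes, and less of cell cycle and MHC class I presentation genes. At an adjusted p under 0.05, 394 of 2687 genes were higher (14.7%) and 315 lower (11.7%). Of the cDC2 surface and lectin list of 34 genes, 16 were tested, 13 were higher and 2 lower, with a median log2 difference of 3.66 against -0.02 over all genes. Cd7, an immunoglobulin-family receptor, was at 223 ± 64.3 CPM in cDC2 and had no UMI in cDC1 cells, at least 71.1-fold higher against 3 counts over the class. The lectins Clec4n (dectin-2) and Clec4a2 were at 197 ± 73.7 against 7.37 ± 6.27 CPM and 131 ± 47.3 against 5.21 ± 4.36 CPM. Among cytokines and their receptors, 9 of 16 tested were higher and 0 lower. Il1b was at 1617 ± 756 CPM against 267 ± 79.7 CPM (log2 difference 2.41 ± 0.18 SE). The decoy receptor gene Il1r2 gave 165 UMIs in cDC2 and 1 in cDC1 cells, a ratio of 186 with a counting interval of 32.9 to 7395. Chemokines were higher in 5 of 12 tested, among them Ccl9 (548 ± 306 against 19.7 ± 7.90 CPM) and Ccl6 (767 ± 345 against 58 ± 36 CPM).

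Of 34 type I interferon-stimulated genes tested, 22 were higher in cDC2 than in cDC1 cells and 1 lower. Ifitm3, which restricts virus entry, was at 5532 ± 1409 CPM against 619 ± 208 CPM (log2 difference 3.12 ± 0.21 SE). Ms4a4c was at 653 ± 258 against 24.3 ± 17.9 CPM. All 12 tested cDC1 markers of 21 were lower, which the choice of the classes favours. Irf8 was at 285 ± 154 CPM against 2715 ± 281 CPM (log2 difference -3.40 ± 0.24 SE), Ppt1 (a lysosomal thioesterase) at 93.6 ± 18.7 against 823 ± 44.5 CPM and Cadm1 (an adhesion molecule) at 9.08 ± 9.92 against 169 ± 55.2 CPM. Of 14 cell cycle genes tested, 12 were lower and 0 higher, with Ccna2 (cyclin A2) at 5.74 ± 4.13 against 96.8 ± 44.3 CPM. MHC class II differed less: 5 of 14 tested were higher, led by the processing genes Lgmn, Ctss (1774 ± 229.7 against 632 ± 188 CPM) and Ifi30, and H2-Ob was lower. MHC class I presentation was lower in 8 of 18 tested, among them the immunoproteasome subunit Psmb9 (500.1 ± 78 against 1117 ± 139 CPM), and higher in 2. Transcription factors split, with Zeb2 (182 ± 78.9 against 4.87 ± 9.75 CPM) higher and Id2 (357 ± 269 against 1665 ± 56.4 CPM) lower.

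Against migratory dendritic cells (90 cells), cDC2 cells were low in maturation genes and costimulatory genes and had more RNA of class II peptide-loading and glycolysis genes. Of 2445 genes, 586 were higher (24.0%) and 558 lower (22.8%). In the dendritic maturation and migration list, 34 of 36 tested were lower and 0 higher, with a median log2 difference of -4.0. This list holds genes known to follow Ccr7 and Fscn1, by which those cells were chosen. Cacnb3, a calcium channel subunit, and Il12b had no UMI in cDC2 cells. They were at least 186-fold and 96-fold higher in migratory cells, against 3 counts over all members. Ccl22, which like Ccl17 binds CCR4, was at 53.4 ± 40 against 1658 ± 1097 CPM, and Relb, an NF-kB subunit, at 64.6 ± 14.9 against 682 ± 120.1 CPM. Costimulatory and checkpoint genes were lower in 8 of 14 tested, among them Cd274 (PD-L1, 25.1 ± 18.9 against 211 ± 62.3 CPM), Cd40 (69.2 ± 16.9 against 307 ± 58.1 CPM) and Cd80 (11.1 ± 8.75 against 76 ± 15.9 CPM), and higher in 3, among them Vsir (VISTA, 78 ± 14 against 12.1 ± 8.74 CPM).

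MHC class II presentation was higher in 8 of 13 tested against migratory cells and lower in 0. H2-DMb1 was at 1576 ± 161 CPM against 148 ± 69.6 CPM (log2 difference 3.37 ± 0.30 SE), H2-DMa at 1571 ± 161 against 404 ± 135 CPM and the class II chain H2-Ab1 at 12292 ± 1514 against 3758 ± 2114 CPM. MHC class I presentation went the other way, with 13 of 19 lower and 2 higher. H2-Q7 was at 108 ± 39.3 against 944 ± 259 CPM and Psme2, a proteasome activator subunit, at 568 ± 49.3 against 1553 ± 227 CPM. Clec10a gave 353 UMIs in cDC2 and 2 in migratory cells, a ratio of 124 (counting interval 34 to 1026). The chemotactic receptors Ccr2 (333 ± 59.6 against 23.6 ± 30.1 CPM) and Gpr171 (281 ± 27.4 against 17.5 ± 6.61 CPM) were higher. Of 15 hypoxia and glycolysis genes tested, 9 were higher, with Ldha (lactate dehydrogenase A) at 985 ± 119 against 255 ± 34 CPM, and 2 were lower. Immediate-early genes were higher in 14 of 22, with Egr1 at 209.7 ± 44.3 against 12.8 ± 8.84 CPM and Fos at 1376 ± 104 against 255 ± 96.4 CPM. These genes also respond to tissue digestion, whose part was not tested.

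Against monocytes (685 cells), cDC2 cells had more RNA of several class II accessory genes and less of chemokine and glycolysis genes, while lectin and surface genes went both ways. Of 4735 genes, 529 were higher (11.2%) and 610 lower (12.9%). The monocyte class also held markers of plasmacytoid dendritic cells, of which 8 of 10 tested were lower in cDC2 cells and 0 higher. Siglech was at 67.3 ± 6.05 CPM in monocytes and 4.28 ± 8.57 CPM in members. The gated monocytes may thus be a mixed class, and the part of such cells in the comparisons with monocytes was not tested. The 5 tested cDC2 markers were higher in 5 of 5, with Ccl17 at 316 ± 167 against 4.53 ± 5.01 CPM and H2-DMb2 at 375 ± 98.9 CPM against 25.4 ± 5.49 CPM (log2 difference 3.90 ± 0.19 SE). Other class II genes were H2-Oa (137 ± 40.8 against 17.8 ± 7.72 CPM), H2-Ob (52 ± 24.6 against 6.01 ± 3.35 CPM) and the transactivator Ciita (81 ± 32 against 23.5 ± 10.5 CPM). In all, 6 of 16 class II presentation genes were higher and 3 lower, the last including the lysosomal proteases Ctsl (36.2 ± 12.2 against 855 ± 745 CPM) and Lgmn (146 ± 73.3 against 843 ± 66.3 CPM). Of 21 cDC2 surface and lectin genes tested, 8 were higher and 8 lower, with a median log2 difference of 0.23. Among the higher were Mgl2 (300 ± 105 against 23.7 ± 14 CPM), Clec10a (404 ± 51 against 54 ± 26.4 CPM) and Klrd1 (432 ± 86.2 against 35.3 ± 8.08 CPM). Among the lower were the lectins Clec12a (88.1 ± 23.6 against 217 ± 62.9 CPM) and Clec4a2 (131 ± 47.3 against 299 ± 25.4 CPM), and Sirpa (121 ± 25.6 against 182 ± 10.1 CPM).

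Of 26 hypoxia and glycolysis genes tested against monocytes, 20 were lower and 1 higher. Pkm (pyruvate kinase) was at 609 ± 67.7 CPM against 1661 ± 277 CPM (log2 difference -1.41 ± 0.13 SE) and Ero1l at 19.9 ± 14.7 against 129 ± 73.5 CPM. Chemokines were lower in 9 of 15. Ccl2 was at 161 ± 13.6 against 3765 ± 1079.9 CPM and Ccl7 at 38.7 ± 14.6 against 2858 ± 409 CPM, both ligands of CCR2. Receptors for complement and formyl peptides were lower too, with C5ar1 at 5.96 ± 4.29 against 219.9 ± 104 CPM and C3ar1 at 7.51 ± 5.45 against 243 ± 32.1 CPM. Macrophage markers were lower in 17 of 18 tested, among them Arg1 (arginase, 4.54 ± 3.59 against 832 ± 969.9 CPM), Spp1 (20.5 ± 5.02 against 1158 ± 1008 CPM) and Trem2 (4.29 ± 3.52 against 125 ± 90.3 CPM). Monocyte markers, which go with the genes that chose the monocytes, were lower in 13 of 18 tested, and S100a4 was the 1 that was higher (1052 ± 309.7 against 672 ± 160.2 CPM). Type I interferon-stimulated genes were lower in 16 of 57 tested and higher in 0, with Irf7 at 316 ± 247 against 657 ± 337 CPM and Rsad2 at 78 ± 55.9 against 267 ± 142 CPM.

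**Figure D3:**
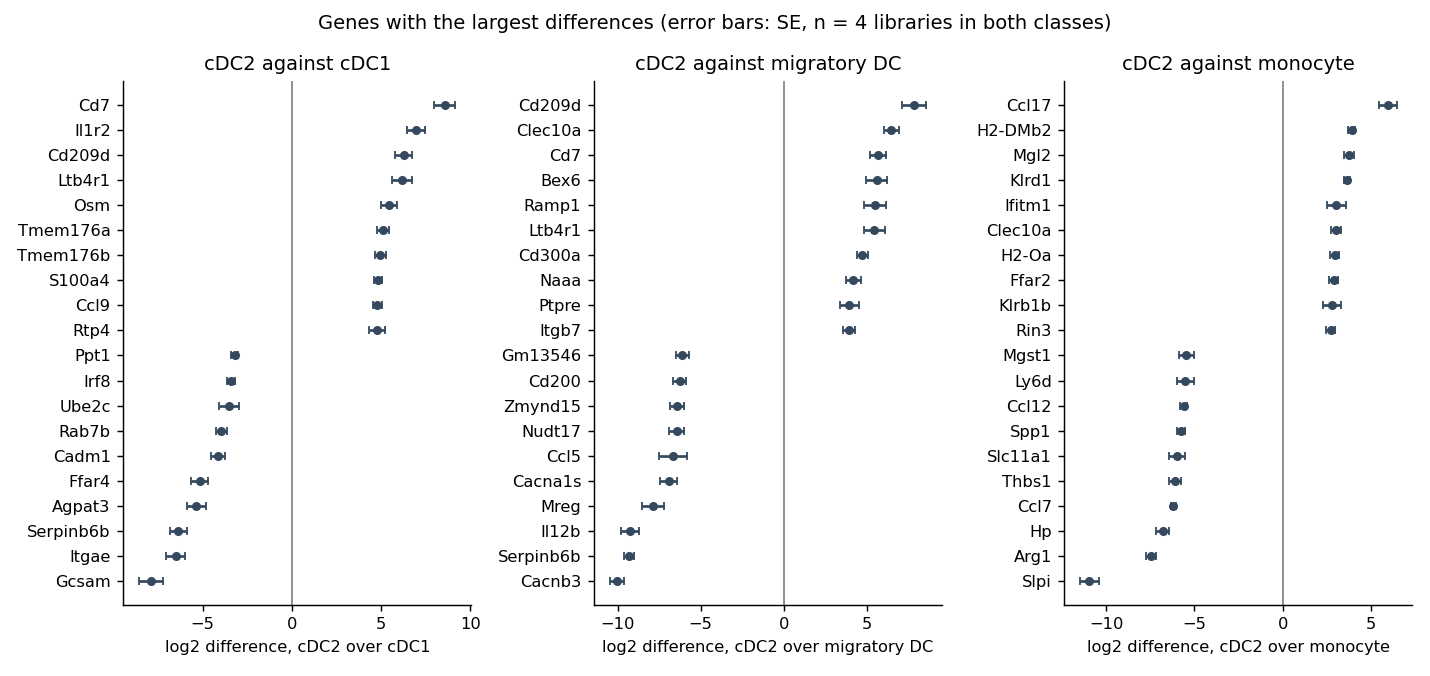
The 10 genes with the largest log2 difference in each direction between cDC2 cells and cDC1 cells, migratory dendritic cells and monocytes, with the fitted log2 difference on the x axis and bars of 1 SE. Cd7 and Cd209d lie far to the right against both other dendritic classes. Points of genes with no UMI in a class, such as Cd7 in cDC1 cells and Slpi in cDC2 cells, depend on the prior count of the fit.

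The main comparison asks how cDC2 cells of Adar1-null tumours differed from those of control tumours. Irf7 and Hmgb2 rose and the lectin gene Clec4b1 and the receptor gene Slamf9 fell. No other gene of 2900 passed an adjusted p of 0.05 in edgeR (4 genes, 0.138%). An unadjusted p under 0.05 was reached by 102 genes that were higher and 64 that were lower. Irf7 encodes a transcription factor of the interferon response (chr7:141262706-141266481, minus strand, GRCm38). It was at 353 and 649 CPM in the Adar1-null libraries S1 and S2 and 165 and 98.5 CPM in the control libraries S3 and S4, a log2 change of 1.86 ± 0.32 (SE) with adjusted p = 0.00542 by edgeR. Both Adar1-null libraries lay above both controls, and S2 was highest. Irf7 was detected in 60.6 and 71.4% of thinned members against 25 and 24.3% (72.7 and 78.6% against 44.4 and 40.5% unthinned), and in 15% of thinned T cells. The other classes differed in direction. From S1 to S4, Irf7 was at 687, 1083, 591 and 265 CPM in monocytes, 318, 652, 287 and 190.1 CPM in macrophages and 59, 68.6, 36 and 26.5 CPM in T cells, with both Adar1-null libraries above both controls. In migratory dendritic cells it was at 112, 213, 366 and 362 CPM, with both Adar1-null libraries below both controls, and in cDC1 cells at 238, 159, 202 and 266 CPM, where the groups overlapped. The difference of cDC2 cells from cDC1 and migratory cells in this response was not tested.

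Hmgb2, a chromatin protein that is abundant in dividing cells (chr8:57511907-57515999, plus strand), was at 372 and 356 CPM in the Adar1-null libraries S1 and S2 and 138 and 85.7 CPM in the control libraries S3 and S4. The log2 change was 1.65 ± 0.30 (SE), adjusted p = 0.00542 by edgeR. Its UMIs were uneven: 5 cells held 45.4% of them and 1 cell of S1, with 35 UMIs, held 17.9%. In S2, 1 member with several cell cycle transcripts held 32 UMIs, and all other members of S2 together held 30. In S1, 6 such members held 55 and the others 23. The level in both Adar1-null libraries therefore rests largely on few cells. It was detected in 57.6 and 46.4% of thinned members against 36.1 and 29.7% (unthinned 60.6 and 50% against 47.2 and 35.1%). Among thinned T cells 87.7% held it, and T cells had 1732, 1647, 1541 and 1424 CPM from S1 to S4. Whether RNA from such cells added to the level in members was not tested. Without the 10 members that had 3 or more core cell cycle UMIs, all of which held Hmgb2, its level was 144 and 189 CPM against 82 and 70.4 CPM. The groups still did not overlap, at lower levels. The removal went by thinned counts, and before thinning 8, 1, 6 and 2 members of S1 to S4 had 3 or more such UMIs. Some of these therefore stayed in, and the part of dividing cells in the Hmgb2 difference was not tested. The 6 tested cell cycle genes of 40 all had positive changes, with a median of 0.58, and 4 of them were higher without overlap, as were 20% of all genes tested (14.1% were lower without overlap). Stmn1 (stathmin) was at 172 and 121 CPM against 111 and 21.4 CPM and Tuba1b at 687 and 563 CPM against 441 and 449.7 CPM. In S2, all Stmn1 UMIs came from 1 member. 2810417H13Rik, also known as Pclaf, a PCNA-binding factor, was at 181 and 109 CPM against 26.8 and 0 CPM and did not pass the adjusted test. It was detected in 7.46% of members before thinning, and in 63.7% of T cells. In S2, all UMIs of 2810417H13Rik also came from 1 member.

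Clec4b1 encodes a C-type lectin receptor (chr6:123049962-123071555, plus strand). It was at 28.6 and 57.5 CPM in the Adar1-null libraries S1 and S2 and 180.2 and 158 CPM in the control libraries S3 and S4, a log2 change of -2.04 ± 0.39 (SE) with adjusted p = 0.00656 by edgeR. One member of S3 held 19% of its UMIs. It was detected in 9.09 and 17.9% of thinned members against 22.2 and 35.1% (unthinned 15.2 and 17.9% against 30.6 and 43.2%), and in 1.18% of thinned T cells. Slamf9, a SLAM-family receptor of myeloid cells (chr1:172475358-172478575, plus strand), was at 71.6 and 51.7 CPM in the Adar1-null libraries S1 and S2 and 173 and 244 CPM in the control libraries S3 and S4, a log2 change of -1.77 ± 0.36 (SE) with adjusted p = 0.0144 by edgeR. Detection was 21.2 and 17.9% against 47.2 and 43.2% (unthinned 21.2 and 25% against 55.6 and 64.9%), and in 1.99% of thinned T cells. Both genes are also expressed by macrophages, where Slamf9 was at 162, 333, 196 and 67.4 CPM and Clec4b1 at 109, 168, 126 and 45 CPM in S1 to S4. In macrophages S4 was lowest for both genes, while in cDC2 cells S4 was high.

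These calls were sensitive to the tool and the gate. With DESeq2 in place of edgeR 0 genes passed, and the adjusted p was 0.069 for Irf7 and 0.296 for Hmgb2, although the log2 changes were close (1.88 and 1.66). An unadjusted p under 0.05 was reached there by 11 higher and 11 lower genes. In edgeR 0 genes passed with at most 2 C1q UMIs per member or with 28 cells drawn from each library. With 1 or more Cd209a UMIs as the gate, Irf7 alone passed (adjusted p = 0.0468, edgeR), and the log2 change of Hmgb2 was 0.84 (adjusted p = 0.872, edgeR). With 3 or more Cd209a UMIs 3 genes passed, and Clec4b1 (adjusted p = 0.146) and Slamf9 (adjusted p = 0.0915) did not, while 2810417H13Rik did, all by edgeR. All 4 genes kept their sign in each of these fits. With 1 library left out, edgeR called 26 genes without S1, 6 without S2, 27 without S3 and 11 without S4. Hmgb2 was called in each case, Irf7 was lost without S2 (adjusted p = 0.204), Clec4b1 without S1 (0.182) and Slamf9 without S2 (0.413) or S4 (0.0933), all by edgeR.

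**Figure D4:**
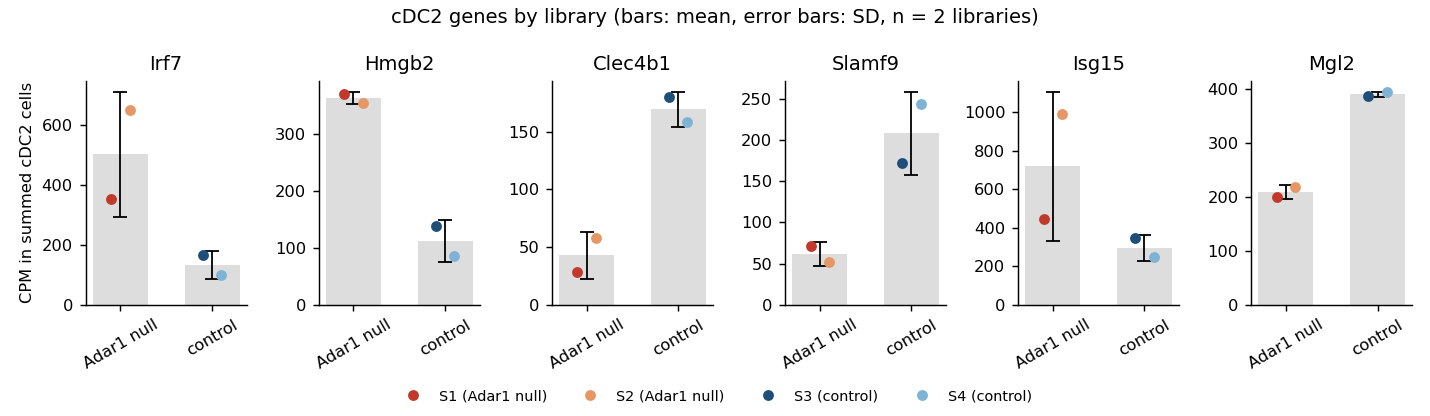
Level in CPM, on the y axis from 0, of 6 genes in summed cDC2 cells by tumour group, with a point per library, the mean as a bar and the SD as an error bar (n = 2). Irf7, Hmgb2, Clec4b1 and Slamf9 passed the edgeR test, and Isg15 and Mgl2 did not, although the groups do not overlap in any of the 6 genes.

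Type I interferon-stimulated genes leaned higher in members from Adar1-null tumours, with Irf7 the one that passed. Of 66 genes on the list, 43 passed the filter on low counts and all 43 had a log2 change above 0. Their median was 0.59, against -0.01 over all genes. Groups did not overlap in 24 of them, all higher, where 20% of all tested genes were higher without overlap and 14.1% lower. With no filter, 60 of 64 were positive with a median of 0.65. With at least 3 Cd209a UMIs per member 37 of 41 were positive (median 0.37), and with at most 2 C1q UMIs 40 of 43 (median 0.45). With Irf7 included, 11 genes of the list had an unadjusted edgeR p under 0.05, all of them higher, where 102 of all 2900 tested genes were higher at that p. Isg15, whose small protein is joined to others like ubiquitin, was at 444 and 994 CPM in the Adar1-null libraries S1 and S2 and 345 and 248 CPM in the control libraries S3 and S4 (log2 change 1.22 ± 0.34 SE, adjusted p = 0.517 by edgeR). S2 stood out, while S1 lay close to S3. Rsad2 (viperin) was at 62 and 161 CPM against 42.2 and 47.1 CPM and Ifit1, which binds foreign RNA, at 47.7 and 184 CPM against 26.8 and 47.1 CPM. Ifit3 was at 71.6 and 167 CPM against 57.5 and 47.1 CPM, the poly-ADP-ribosyl transferase family member Parp14 at 90.6 and 167 CPM against 53.7 and 38.5 CPM and the DNA sensor Ifi204 at 153 and 270 CPM against 99.7 and 81.4 CPM. Ifitm3 overlapped between the groups, at 4947 and 7584 CPM against 5203 and 4394 CPM.

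The sum of the 65 measured genes was 15104 and 23677 CPM against 14918 and 11383 CPM. S1 and S3, of different groups, were thus nearly equal. Per cell, thinned members held a median of 60 and 87 UMIs of these genes per 4000 in the Adar1-null libraries, against 52 and 40 in the controls. Single cells ranged from 14 to 161 in S1, 31 to 235 in S2, 16 to 168 in S3 and 14 to 136 in S4, so the cells of the groups overlapped widely. Leaving out 1 library moved the list's median to 0.89 without S1, 0.31 without S2, 1.0 without S3 and 0.43 without S4. Positive changes were then 51 of 52, 39 of 48, 51 of 51 and 50 of 53. In monocytes of the same libraries the list's median was 0.66 over 63 genes tested.

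Promoters of these genes are shown because every tested gene of the list leaned the same way in the main fit. These genes are also known to be bound by interferon-activated factors. The motif searched was GAAANNGAAA, on both strands, a core of the interferon-stimulated response element in which N is any base. Overlapping matches count separately. RefSeq promoter windows (build GRCm38.p6, from 250 bases before to 50 after the start) were found for 32 of the 43 tested genes. The motif was in 16 of their 42 windows (38.1%), against 1131 of 32851 windows of all genes (3.44%). The list was made of genes known to respond to interferon, so this share describes the list and not these cells. Each stretch below runs 5′ to 3′ on the gene's strand, with the matches and overlapping matches in capitals. Their genes had an unadjusted edgeR p under 0.05 in members, as did Oas1a and Slfn5, which also held the motif and are not shown. The stretch of Isg15 is chr4:156200835-156200936 (minus strand), of Rsad2 chr12:26456523-26456612 (minus strand), of Ifit3 chr19:34583333-34583456 (plus strand) and of Ifit1 chr19:34640745-34640853 (plus strand), all GRCm38.
Isg15: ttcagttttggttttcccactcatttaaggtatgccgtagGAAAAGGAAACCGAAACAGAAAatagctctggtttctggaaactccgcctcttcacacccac
Rsad2: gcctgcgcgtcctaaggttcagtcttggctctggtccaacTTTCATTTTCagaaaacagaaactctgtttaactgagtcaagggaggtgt
Ifit3: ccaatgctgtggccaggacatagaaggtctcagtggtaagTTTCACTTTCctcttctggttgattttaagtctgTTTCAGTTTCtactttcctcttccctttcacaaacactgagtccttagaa
Ifit1: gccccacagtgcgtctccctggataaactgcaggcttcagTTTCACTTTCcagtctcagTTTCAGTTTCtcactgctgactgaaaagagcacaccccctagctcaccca
Isg15 has 3 overlapping matches that begin 78 bases before the start, and Ifit1 and Ifit3 have 2 each. The 1 window of Irf7 and the 3 of Isg20 hold no match to these letters, and Parp14, Ifi204 and Rtp4 had no window. In MHC class II presentation genes, 1 of 13 windows held the motif.

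Of 35 interferon-gamma-induced genes, 21 were tested, 17 had positive changes and the median was 0.38, with 0 past the adjusted threshold. Without overlap, 4 of the 21 were higher and 1 lower, where 20% and 14.1% of all tested genes were, so the share of the higher ones is near that of all genes. Irf1, an early interferon target, was at 129 and 310.3 CPM against 111 and 128 CPM, and the chemokine gene Cxcl10, which attracts CXCR3-positive T cells, at 792 and 1499.5 CPM against 717 and 351 CPM. The immunity-related GTPase gene Igtp was at 42.9 and 172 CPM against 53.7 and 42.8 CPM, high in S2 alone. MHC class I presentation was positive in 16 of 18 tested, with a median of 0.18 and 8 higher without overlap (20% over all tested genes). The peptide-loading genes Tapbp (229 and 385 CPM against 199 and 223 CPM) and Tap1 (319.6 and 350.5 CPM against 288 and 231 CPM) were among these, and none passed the test. The unadjusted p was over 0.05 for each of the 18.

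MHC class II presentation leaned lower, with 12 of 15 tested genes negative and a median of -0.24. Without overlap, 5 were lower and 0 higher, against 14.1% lower and 20% higher over all tested genes. None passed the adjusted test in edgeR, and 2 had an unadjusted p under 0.05. H2-Eb1, a class II beta chain, was at 6274 and 7417 CPM in the Adar1-null libraries S1 and S2 and 8063 and 9717 CPM in the control libraries S3 and S4 (log2 change -0.43 ± 0.19 SE, adjusted p = 0.823 by edgeR). H2-Ob, a chain of the H2-DM inhibitor H2-O, was at 28.6 and 40.2 CPM against 53.7 and 85.7 CPM. The invariant chain gene Cd74, the most abundant of them, was at 15668 and 20959 CPM against 19024 and 24278 CPM, where the groups overlapped. The summed level was 49025 and 60970.3 CPM against 58725 and 70187 CPM, lowest in S1 and highest in S4. Without S1 the list's median was -0.09, and without S4 it was -0.09. In monocytes of these libraries the same list had a median of 0.39, with 12 of 15 positive, but 0 were higher without overlap. Control library S4 was low there, with Cd74 at 6474, 8593, 8318 and 2548 CPM and H2-Ab1 at 3740, 5037, 5037 and 1279 CPM from S1 to S4. The difference between the classes did not pass for any of these genes (adjusted p at least 0.959 by edgeR).

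**Figure D5:**
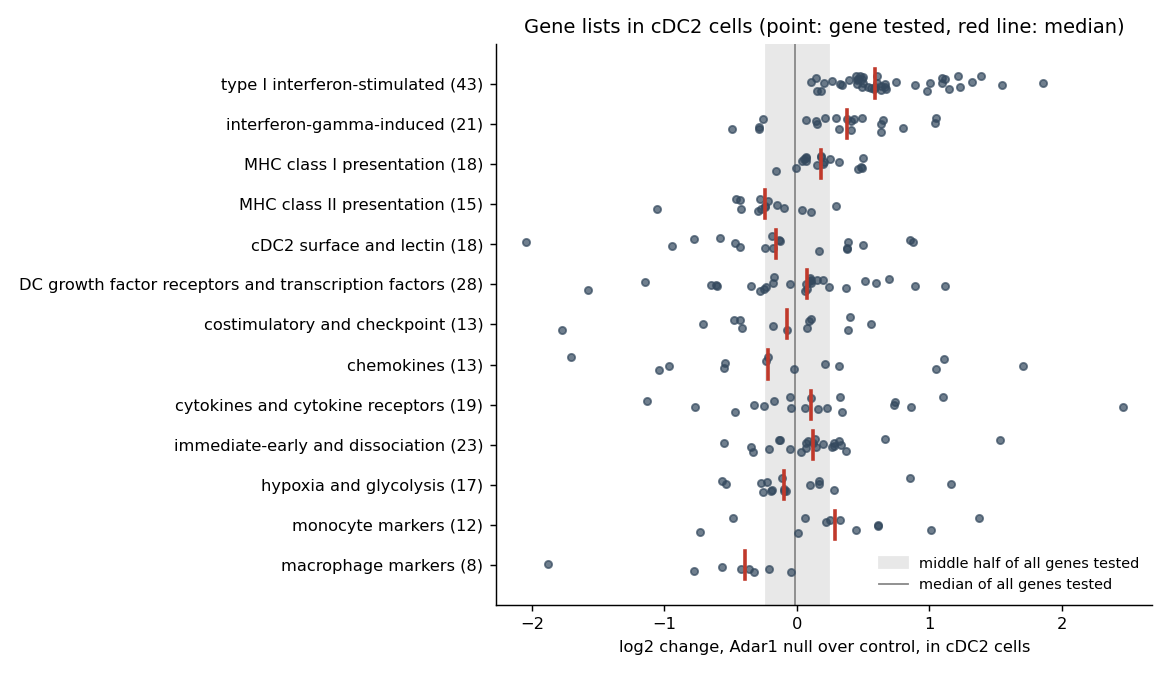
Log2 change in cDC2 cells, Adar1 null over control, on the x axis for each tested gene of 13 lists (number of genes in brackets, gate genes left out), with the list's median as a red line. The grey band holds the middle 50% of all tested genes. All 43 tested type I interferon-stimulated genes lie right of 0, and 12 of 15 MHC class II presentation genes lie left of it.

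Lectin and surface genes of the type had changes of both signs. Of 34 genes 18 were tested, 7 were positive and 11 negative, with a median of -0.15, and Clec4b1 was the 1 called. Mgl2 (CD301b), a galactose-binding lectin of dermal cDC2 cells, was at 200.4 and 218 CPM against 387 and 394 CPM, without overlap (adjusted p = 0.416 by edgeR). Cd209d, outside the list, was at 85.9 and 161 CPM against 238 and 239.8 CPM. Clec4n was at 253 and 259 CPM against 104 and 171 CPM and Cd24a at 153 and 155 CPM against 80.5 and 81.4 CPM, without overlap and short of the threshold. Of the markers, Napsa (687 and 1005 CPM against 863 and 1036 CPM) and Ccl17 (472 and 115 CPM against 245 and 433 CPM) overlapped, and Ffar2 did not, at 62 and 121 CPM against 127 and 158 CPM.

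In the list of growth factor receptors and transcription factors, 16 of 28 tested genes were positive and 12 negative, and 0 were called. Id2, a factor needed for several dendritic lineages, was at 177 and 189.6 CPM against 311 and 749 CPM, high in S4 above all. Cebpb was at 143 and 91.9 CPM against 38.3 and 68.5 CPM and Bcl11a at 95.4 and 97.7 CPM against 69 and 30 CPM. Costimulatory and checkpoint genes were positive in 6 of 13, and Slamf9 was the 1 called. Cd40, which receives help from CD4 T cells, was at 81.1 and 86.2 CPM against 53.7 and 55.7 CPM, and Vsir at 71.6 and 63.2 CPM against 95.8 and 81.4 CPM. Chemokines were positive in 5 of 13, with 0 called. Ccl9 was at 377 and 356 CPM against 456 and 1002 CPM and Ccl8 at 71.6 and 46 CPM against 104 and 124 CPM, without overlap, and Ccl4 at 663 and 1764 CPM against 525 and 552 CPM, where 1 member of S2 held 14.7% of the UMIs. Among cytokines and receptors, 11 of 19 were positive and 0 called. Osm (oncostatin M), a cytokine of the IL-6 family, was at 215 and 305 CPM against 88.2 and 146 CPM. Il10rb, a chain of the IL-10 receptor, was at 33.4 and 34.5 CPM against 80.5 and 64.2 CPM. Il1rn, the IL-1 receptor antagonist, was at 57.3 and 138 CPM against 0 and 34.3 CPM, with 1 member of S2 holding 45.5% of the UMIs. Il1b overlapped, at 1465 and 2637 CPM against 813 and 1555 CPM.

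Markers of other cells in the members were compared as well. Macrophage markers other than the gate genes were negative in 8 of 8 tested, with a median of -0.39 and 0 called. Their sum over 25 genes was 1312 and 1103 CPM against 1330.4 and 2039 CPM, so S4 was high and the other libraries were close. Mrc1 (CD206) was at 28.6 and 40.2 CPM against 53.7 and 60 CPM. Monocyte markers were positive in 10 of 12, with a median of 0.29. Their sum over 18 genes was 8058 and 7383 CPM against 7564 and 5679 CPM. Fcgr1, which interferon also induces, was at 138 and 218 CPM against 104 and 64.2 CPM and Plac8 at 2653 and 3309 CPM against 2435 and 1812 CPM, while S100a4 was at 939.9 and 666 CPM against 1338 and 1263 CPM and Ccr2 at 296 and 270 CPM against 391 and 377 CPM. Their part in the differences above was not tested. Dissociation and immediate-early genes were positive in 16 of 23, with a median of 0.12. Hypoxia and glycolysis genes were positive in 6 of 17, among which Pfkp was at 224 and 477 CPM against 196 and 176 CPM and Aldoa at 396 and 448 CPM against 521 and 685 CPM. The lists of maturation (9 of 18 positive), chemotactic receptors (6 of 12) and innate sensors (5 of 8) had 0 genes called in edgeR. From these, Cst3 (cystatin C) was at 6379 and 10767 CPM against 5045 and 5473 CPM, Ptafr at 52.5 and 109 CPM against 42.2 and 34.3 CPM and Cd14 at 162 and 213 CPM against 99.7 and 137 CPM.

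Outside the lists, several genes had groups that did not overlap but missed the adjusted threshold. Wfdc17 was at 973 and 758 CPM against 1319 and 1687 CPM and Tmem176a, a membrane protein gene of dendritic cells, at 205 and 213 CPM against 311 and 501 CPM. Abhd17a was at 47.7 and 51.7 CPM against 119 and 116 CPM and Gda (guanine deaminase) at 38.2 and 28.7 CPM against 76.7 and 98.5 CPM. On the other side were the cholesterol synthesis gene Mvd (119 and 57.5 CPM against 26.8 and 30 CPM) and Gm9844 (138 and 178 CPM against 69 and 68.5 CPM). None had an adjusted p under 0.325 in edgeR.

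The response of cDC2 cells was also set against that of monocytes of the same libraries, as the interaction of class and tumour group. Both classes share libraries, so the library was a block. Of 5588 genes, 2 differed (0.0358%), Ifitm1 and Hmgb2. Ifitm1, an interferon-induced membrane protein gene (chr7:140967221-140969825, plus strand), was at 1126, 3378, 897 and 1919 CPM in cDC2 cells from S1 to S4, where the groups overlapped. In monocytes it was at 63.5, 228, 206 and 429 CPM, where they overlapped as well. The log2 change was 0.62 in cDC2 cells and -1.13 in monocytes, a difference of 1.82 ± 0.18 (SE, adjusted p = 2.7e-06, edgeR). The ratio of cDC2 to monocyte levels was higher in both Adar1-null libraries than in both controls. For Hmgb2 the log2 changes were 1.65 and -0.15, a difference of 1.82 ± 0.31 (SE, adjusted p = 0.0135, edgeR). Monocytes held Hmgb2 at 165, 207, 213 and 193 CPM. Clec4b1 missed the threshold (difference -2.57, adjusted p = 0.0568, edgeR), and Irf7 had a difference of 0.81 (adjusted p = 0.69, edgeR), so a different Irf7 response was not shown. With 1 library left out the count of genes that differed was 30 without S1, 12 without S2, 20 without S3 and 12 without S4. Both genes passed in each case.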

How the data were processed

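Single-cell RNA was measured in 4 libraries, 2 of Adar1-null and 2 of control tumours. The deposited matrix holds whole-number UMI counts per gene and barcode, made with Cell Ranger against mm10 and handled in Seurat 2.2.0, per the submitters' processing notes. It holds 27998 genes, of which 19218 have a UMI, and no column of it was left unused. The suffix of each barcode names the library and shows its group (ADAR or Control), but carries no replicate number of the labels. Filters left 8677 of 8838 barcodes (161 removed). Doublets were scored with Scrublet (scanpy 1.11.5, expected rate 0.02) and kept in the main fits.

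The members and gene lists were chosen with earlier results of these data known, so no list is independent support for a direction. UMIs of each gated class were summed per library and scaled to CPM. Genes were tested with edgeR 4.0.16 (R 4.3.3: TMM, filterByExpr, robust quasi-likelihood fit), and p-values were adjusted by Benjamini and Hochberg's method across the genes of each test, with a threshold of 0.05. Contrasts between classes had the library as a block, and the group contrast had no covariate. Shares were compared by exact permutation of the libraries. Symbols that occur more than once (121 rows) were not named. The scripts were tested on simulated data. The text names genes past the threshold, the first 10 by p in each direction among genes of at least 50 CPM whose groups do not overlap, the 10 largest differences between classes, and members of the lists. Alternatives were DESeq2 1.42.0, RLE scaling, no filter on low counts, other gates, equal cell numbers and leaving out each library.

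Some genes are not reported here. Member totals of 174052 to 260827 UMIs per library limit precision for genes under about 50 CPM. Gene positions are from GENCODE M21 on GRCm38.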

Additional observations from a re-analysis of the deposited data

Results flagged for a closer look

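The interaction test in edgeR found that 2 genes differed between cDC2 cells and monocytes in how the tumour groups compared. For Ifitm1 the log2 change, Adar1 null over control, was larger in cDC2 cells than in monocytes by 1.82 (SE 0.18, adjusted p 2.7e-06). The 5 richest members held 31.9% of its UMIs, and 1 member of S2 held 173 UMIs. It passed under DESeq2 too (adjusted p 0.00334). For Hmgb2 the difference was 1.82 (SE 0.31, adjusted p 0.0135 by edgeR), and under DESeq2 it did not pass. The 5 richest members held 45.4% of its UMIs, and in S2 1 member held 32 UMIs against 30 in all others of that library. No group had 4 or more libraries, so no library was tested as an outlier.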

How the results depend on the processing

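No paired analysis was possible because the library names in the barcodes carry no replicate number of the labels. The count of 4 genes that differed between the tumour groups became 0 under DESeq2, 18 with no filter on low counts, 1 with at least 1 Cd209a UMI, 0 with at most 2 C1q UMIs and 0 with equal cell numbers. It stayed at 4 with RLE scaling and without doublets, was 3 with at least 3 Cd209a UMIs (Irf7 and Hmgb2 were 2 of them, and 2810417H13Rik was called in place of Clec4b1 and Slamf9), and was 6 to 27 when 1 library was left out. Against cDC1 cells DESeq2 called 381 genes (edgeR 709), and against monocytes 687 (edgeR 1139). The number of genes that differed in response from monocytes, 2 in edgeR, was 12 to 30 with 1 library left out, where the remaining lone library of a group is assumed to vary like the others. The interactions with cDC1 and migratory cells were not run, because some libraries hold under 20 of those cells.

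The log2 changes of 13 genes that did not pass the test changed sign, and the cause was not tested. With 1 library left out they ran from -2.83 to 0.0599 for Apoe, -0.14 to 1.0 for Bst2, -1.61 to 0.43 for Ccl17, -2.63 to 0.89 for Ccl5, -1.71 to 0.10 for Cd200r1 and -0.14 to 1.18 for Cenpa. The same ranges were -1.0 to 0.0270 for Fosb, -0.22 to 1.76 for Igtp, -0.51 to 0.0223 for Napsa, -0.61 to 0.0787 for Ppt1, -0.0513 to 0.00635 for Rnase6 and -0.27 to 0.65 for Tcf4. With at most 2 C1q UMIs, Ccl17 was at 0.63 and Rnase6 at 0.0490. With no filter Rnase6 was at 0.000723. Tcf4 was at -0.0518 with the gate at 1 Cd209a UMI and -0.0538 at 3, and Dusp2 at -0.0256 with equal cell numbers. Of the values for single genes and lists, 3603 kept their direction and side of the threshold, 43 passed only under an alternative, 142 no longer passed and 20 changed sign. No share of cells moved by more than its spread. The number of members, 28 to 37 per library, limits genes of low level.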
